A study of Mus musculus with 16 samples.

Results

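The mRNA of 10 genes of the thioredoxin, peroxiredoxin and sulfiredoxin system was followed in mIMCD3 cells, an established line from the inner medullary collecting duct of the mouse kidney. The genes were chosen by their symbols: sulfiredoxin (Srxn1), the thioredoxin reductases Txnrd1 and Txnrd2, the thioredoxins Txn1 and Txn2, and the peroxiredoxins Prdx1, Prdx2, Prdx3, Prdx5 and Prdx6. They are 10 of the 55367 genes listed in the count files, and all 10 were among the 19509 genes that passed the filter on low counts. Together they took between 0.166% and 0.371% of the counts of a library.

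These genes act together in the cytosol and in mitochondria to remove hydrogen peroxide and organic peroxides. A thioredoxin reductase takes electrons from NADPH and passes them to a thioredoxin, and the thioredoxin reduces a peroxiredoxin, the enzyme that meets the peroxide. Typical peroxiredoxins lose activity when their peroxide-reacting cysteine is oxidized too far, and sulfiredoxin, which uses ATP, brings that cysteine back. Nrf2, the transcription factor encoded by Nfe2l2, is held low by Keap1, and sulforaphane (SFN), an isothiocyanate from cruciferous plants, modifies Keap1 and lets Nrf2 accumulate. Srxn1 and Txnrd1 are known Nrf2 target genes. Cells of the inner medulla live in a fluid of high and varying osmolality, and the study used SFN to ask how Nrf2 bears on their response to hyperosmotic stress.

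The 16 RNA-seq libraries fell into 8 groups of 2 biological replicates, all of mIMCD3 cells by their sample labels, while the extraction protocol names primary TEC. Wild-type (WT) cells received DMSO, the vehicle, or 10 µM SFN for 5 h and were then collected in isosmotic medium, or after the medium had been replaced with hyperosmotic medium of 600 mOsm for 1 h or 6 h, which makes 6 groups. Nrf2-/- cells were given SFN in every case and were collected in isosmotic medium or after 1 h of hyperosmotic stress, which makes the other 2 groups. The Nrf2-/- line was made with lentiviral Cas9 and a guide RNA under drug selection. Whether it is 1 clone is not given in the sources used here. No Nrf2-/- cells without SFN and no isosmotic cells collected 6 h after a change of medium were among these groups. So the effect of SFN in Nrf2-/- cells cannot be read here, and the time since the medium was changed and the osmolality cannot be told apart. Total counts ran from 34484296 to 50774875 per library. With 2 libraries a group, an exact permutation test of 1 gene in 1 comparison cannot give a two-sided p below 0.333, so tests were made in a model across all genes (edgeR), which shares the spread between groups and genes.

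The labels of the cells were checked on the deleted gene and on cell type markers. Nfe2l2 had 2496 to 5013 counts in the 12 WT libraries and 386 to 433 counts in the 4 Nrf2-/- libraries, so the groups did not overlap, and the isosmotic Nrf2-/- level was 2.67 lower on the log2 scale (edgeR adjusted p = 1.14e-10). The epithelial markers Epcam, Cdh1, Krt8, Krt18 and Krt7 all passed the filter, and together gave 1640 to 2716 CPM (counts scaled to the size of the library) in WT libraries and 2744 to 3715 CPM in Nrf2-/- libraries. Among WT libraries the sum was 2406 and 2716 CPM in isosmotic DMSO cells, 1825 and 1640 CPM in isosmotic SFN cells and 2187 to 2380 CPM in the others, and its part in the isosmotic SFN results was not tested. Of 10 collecting duct markers, 6 passed the filter. The water channel gene Aqp2, which defines principal cells, had at most 11 counts in any library, and the summed list was carried by Cdh16. The summed level of that list was 203 to 516 CPM in WT libraries, with a median of 230.3 CPM, and 55.2 to 84.8 CPM in Nrf2-/- libraries. It was at 450 to 516 CPM in the 4 WT libraries of 6 h and at 203 to 236 CPM in the other WT libraries. Proximal tubule markers, at 21.2 to 27.6 CPM against 9.06 to 12.7 CPM, and immune markers, at 14.0 to 17.7 CPM against 5.85 to 9.91 CPM, were also higher at 6 h. So were those of endothelium, at 4.0 to 5.36 CPM against at most 0.742 CPM, of fibroblasts, at 5.20 to 7.66 CPM against at most 5.08 CPM, and of intercalated cells, at 0.985 to 1.68 CPM against at most 0.656 CPM. The part of these in the results at 6 h was not tested. Markers of intercalated cells summed to at most 1.68 CPM, of fibroblasts to at most 7.66 CPM, of immune cells to at most 17.7 CPM and of endothelium to at most 5.36 CPM.

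The Nrf2-/- libraries therefore differed from WT in more than Nrf2. Cdh16, a kidney cadherin, was at 165 to 463 CPM in WT and at 14.1 to 25.5 CPM in Nrf2-/- libraries, while Krt7, a keratin of ducts, was at 158 to 380 CPM in WT and at 833 to 1308 CPM in Nrf2-/- libraries. Epcam, another epithelial marker, was at 47.3 to 133 CPM in WT and at 190 to 373 CPM in Nrf2-/- libraries. Krt8 overlapped between the lines, at 740 to 1109 CPM in WT and 650 to 952 CPM in Nrf2-/- libraries, as did Hoxb7 at 27.5 to 52.7 CPM and 34.3 to 56.6 CPM. Cdh1 overlapped only narrowly, at 138 to 425 CPM in WT and 424 to 462 CPM in Nrf2-/- libraries. Lrp2, a proximal tubule marker, was at 5.28 to 13.1 CPM in WT and at 0.0537 to 0.461 CPM in Nrf2-/- libraries. These differences move with the genotype in every comparison of Nrf2-/- and WT cells below, and their part in the results was not tested.

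The 2 Nrf2-/- libraries of 1 h also stood apart from each other. Their biological coefficient of variation was 0.348, against 0.0393 to 0.128 in the other 7 pairs. The first of them had the higher value for 8 of the 10 genes, by 3.04-fold for Txn1, 2.25-fold for Prdx5 and 1.58-fold for Prdx2. Prdx3 and Srxn1 were higher in the second, by 1.2-fold and 1.04-fold. In this pair, the difference between replicates ran with the length of the gene's exons (Spearman's rho = -0.47 across 12100 genes, which are not independent replicates), with a median log2 difference of 0.46 in genes up to the lower quartile of length and -0.31 in genes from the upper quartile. In the isosmotic DMSO pair rho was 0.47, with smaller median log2 differences of -0.14 and 0.13. In the isosmotic SFN pair rho was -0.35, and in the pairs of 6 h it was 0.24 with DMSO and 0.28 with SFN. Because all 16 libraries share 1 estimate of spread per gene, the wide pair enters the spread used in every comparison, and the fit without both of its libraries is given wherever it changes the call of a member.

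To show what the start sites of these genes look like, promoter windows of 300 bases, from 250 before to 50 after the RefSeq transcription start, were searched on both strands for TGACNNNGC, the core of the antioxidant response element that Nrf2 binds. A window was given for 9 of the 10 genes, and Prdx6 had none in the RefSeq table (GRCm38.p6). The letters were found in 3 of the 11 windows of the members, 1 each of Srxn1, Txnrd1 and Prdx1. They were found in 12.4% of all 32851 windows and in 16.5% of the 12378 tested genes that have one. The 3 windows with a match are shown because they set Srxn1 and Txnrd1, whose mRNAs moved together, beside Prdx1, whose mRNA was not called with SFN in the fit over all libraries. Capitals mark the match, which lies on the opposite strand to the gene in each window, so the capitals read as the reverse complement. Counted from 0 at the transcription start, it covers bases 28 to 36 in Srxn1, -92 to -84 in Txnrd1 and -133 to -125 in Prdx1.
Srxn1, chr2:152105274-152105573, plus strand: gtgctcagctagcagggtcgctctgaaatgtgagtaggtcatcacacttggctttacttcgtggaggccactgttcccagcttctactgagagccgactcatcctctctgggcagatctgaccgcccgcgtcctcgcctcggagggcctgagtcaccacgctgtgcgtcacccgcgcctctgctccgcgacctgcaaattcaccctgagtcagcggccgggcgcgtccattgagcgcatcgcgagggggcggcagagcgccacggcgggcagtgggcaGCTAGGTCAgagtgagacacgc
Txnrd1, chr10:82858956-82859255, plus strand: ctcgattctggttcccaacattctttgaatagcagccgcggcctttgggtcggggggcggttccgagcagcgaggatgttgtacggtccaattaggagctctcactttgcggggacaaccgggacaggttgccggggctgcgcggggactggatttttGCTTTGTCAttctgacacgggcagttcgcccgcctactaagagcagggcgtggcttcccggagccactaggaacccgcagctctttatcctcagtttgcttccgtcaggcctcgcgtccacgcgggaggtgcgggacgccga
Prdx1, chr4:116685349-116685648, plus strand: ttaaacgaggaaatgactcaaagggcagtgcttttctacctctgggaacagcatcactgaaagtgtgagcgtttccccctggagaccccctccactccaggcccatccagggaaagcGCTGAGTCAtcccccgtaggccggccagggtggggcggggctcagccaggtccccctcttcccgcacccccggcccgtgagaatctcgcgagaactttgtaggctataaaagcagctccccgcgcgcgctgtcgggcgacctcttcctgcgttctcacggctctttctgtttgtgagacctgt
A match is a run of letters and not a shown site of binding. Txnrd1 has 2 further windows in the table, neither of which holds the letters.

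Per kilobase of annotated exon, the members differed widely in level in WT isosmotic cells given DMSO. Txn1, the cytosolic thioredoxin, was at 447 CPM per kb and stood first in every group. Prdx1 followed at 146, Prdx6 at 125 and Txnrd1 at 111 CPM per kb. Prdx3 was at 79.5, Prdx2 at 68.5, Prdx5 at 58.7, Txn2 at 35.9 and Srxn1 at 29.1 CPM per kb, and Txnrd2 was the lowest at 4.21 CPM per kb. The mitochondrial thioredoxin and reductase were each lower than their cytosolic counterparts. After SFN in isosmotic medium, Txnrd1 moved from the 4th to the 2nd place among the 10 with 173 CPM per kb, and Srxn1 from the 9th to the 6th with 73.0 CPM per kb. In isosmotic Nrf2-/- cells given SFN, Txnrd1 was 6th with 49.3 CPM per kb and Srxn1 9th with 7.69 CPM per kb. These lengths join every annotated exon of a gene, from 1051 bases for Txn1 to 7086 for Txnrd1, so the order depends on them. Before division by length, Txnrd1 at 785 CPM and Prdx6 at 599 CPM lay above Txn1 at 470 CPM in isosmotic DMSO cells.

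**Figure D1:**
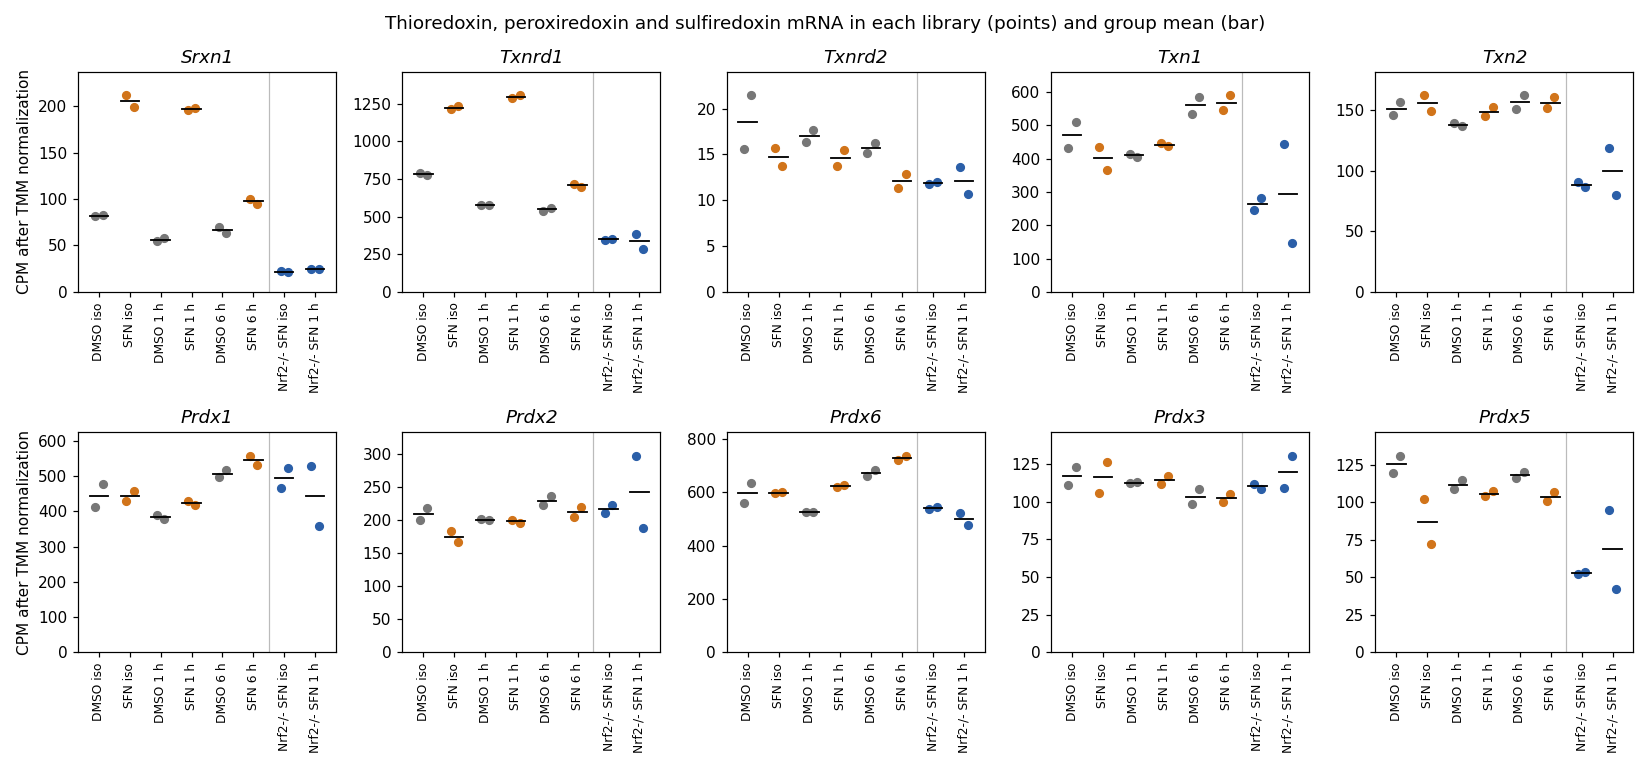
CPM after TMM normalization (y axes from 0, 1 panel per gene) in each of the 16 libraries (points) and the mean of each group of 2 (bar), by group on the x axis. In WT cells Srxn1 and Txnrd1 are higher in each SFN group than in the DMSO group of the same time (Txnrd1 at 6 h was not called), and both are lowest in the Nrf2-/- groups, and the wide Nrf2-/- pair of 1 h shows in Txn1 and Prdx5.

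SFN raised sulfiredoxin and the cytosolic thioredoxin reductase, and no other member passed the test in the fit over all libraries. In isosmotic medium, 2 of the 10 members were higher with SFN and none was lower at an adjusted p under 0.05 (edgeR), where 2.84% of all genes tested were called and 1.09% were called higher and 1.76% lower. Srxn1 was at 81.6 and 82.6 CPM with DMSO and at 211.9 and 199.8 CPM with SFN. Each SFN library was above both DMSO libraries, and the rise was 2.51-fold, or 1.33 on the log2 scale (95% interval 1.14 to 1.51, edgeR adjusted p = 1.26e-06). Txnrd1 was at 791.7 and 777.8 CPM with DMSO and at 1218 and 1233 CPM with SFN, again with no overlap, a rise of 1.56-fold (log2 0.64, SE 0.12, edgeR adjusted p = 0.00614). The call for Txnrd1 was lost without the second DMSO or the second SFN library of this comparison, with the highest adjusted p at 0.0857. In these and all results from whole cultures, a change in the RNA of each cell and a change in the make-up of the culture cannot be told apart.

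After 1 h of hyperosmotic stress the same genes were higher with SFN than with DMSO, 2 of 10 members against 0.0923% of all genes. Srxn1 was at 55.1 and 57.5 CPM with DMSO and at 195.9 and 198.5 CPM with SFN, which is a 3.50-fold difference (log2 1.81, 95% interval 1.62 to 2.0, edgeR adjusted p = 1.11e-07). Txnrd1 was at 575.6 and 579.3 CPM with DMSO and at 1291 and 1306 CPM with SFN, a 2.25-fold difference (log2 1.17, SE 0.12, edgeR adjusted p = 0.000217). The SFN libraries of this hour lay about where the isosmotic SFN libraries lay, and the DMSO libraries lay below the isosmotic DMSO libraries.

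After 6 h the differences were smaller. Srxn1 was the 1 member called, against 0.041% of all genes. It was at 69.5 and 64.0 CPM with DMSO and at 100.5 and 94.8 CPM with SFN, a 1.46-fold difference (log2 0.55, SE 0.09, edgeR adjusted p = 0.0430). This call is close to the threshold and was lost in 17 of 24 other fits, among them the one with the replicate number as a block. In the fit without both Nrf2-/- libraries of 1 h, 2 members and 0.21% of all genes were called. Txnrd1 was at 540.4 and 558.9 CPM with DMSO and at 718.9 and 698.1 CPM with SFN. Its groups did not overlap, while 20.7% of all genes tested lay higher and 20.3% lower with SFN without overlap. The 1.29-fold difference of Txnrd1 (log2 0.37, 95% interval 0.12 to 0.61) had an edgeR adjusted p of 1 over all libraries and of 0.00442 without the Nrf2-/- pair of 1 h.

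**Figure D2:**
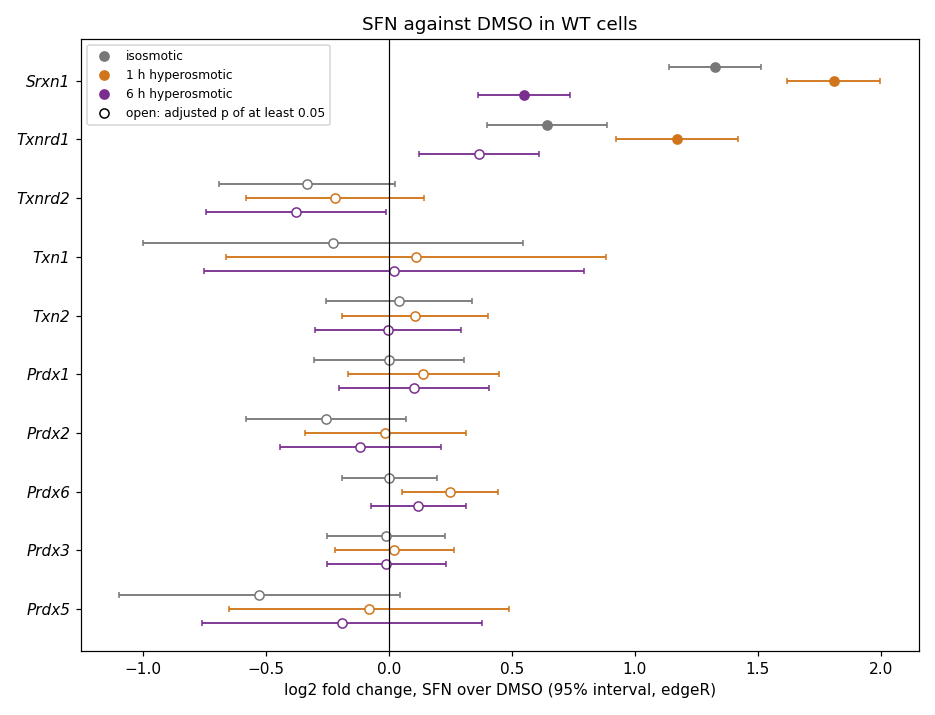
Log2 fold change of SFN over DMSO in WT cells (x axis) for each of the 10 genes (y axis), with 95% intervals from edgeR, in isosmotic medium, at 1 h and at 6 h of stress. Filled points have an adjusted p under 0.05: Srxn1 at all 3 times and Txnrd1 in isosmotic medium and at 1 h.

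The other members gave no call with SFN in the fit over all libraries. Txnrd2, the mitochondrial reductase, had log2 differences of -0.33, -0.22 and -0.38 in isosmotic medium, at 1 h and at 6 h, with the highest adjusted p of 1 and the lowest of 0.364. Its count is small, with a median of 526.5 per library. Txn1 had an interval of -1.0 to 0.54 in isosmotic medium, the widest of the 10. Txn2, its mitochondrial counterpart, was at 145.6 and 156.6 CPM with DMSO and at 161.9 and 149.1 CPM with SFN, so the groups overlapped, and the interval of the difference was -0.26 to 0.34.

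Among the peroxiredoxins, Prdx1 in isosmotic medium was at 411.8 and 476.6 CPM with DMSO and at 430.5 and 457.8 CPM with SFN, where the interval of the log2 difference was -0.31 to 0.30. For Prdx3, a mitochondrial peroxiredoxin, the interval was -0.25 to 0.23. Prdx6, which takes its electrons from glutathione and not from thioredoxin, was at 525.0 and 527.2 CPM with DMSO and at 620.5 and 629.3 CPM with SFN at 1 h. This difference of 0.25 (95% interval 0.05 to 0.44) did not pass the test (edgeR adjusted p = 1). With only the 4 libraries of that comparison, 5 members and 4.77% of all genes were called, Srxn1 and Txnrd1 with Prdx6, Prdx1 and Txn1, at log2 differences of 0.25 for Prdx6, 0.14 for Prdx1 and 0.11 for Txn1.

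Prdx2 and Prdx5 lay lower with SFN in isosmotic medium without passing the test over all libraries. Prdx2, the peroxiredoxin best known from red blood cells, was at 200.2 and 217.9 CPM with DMSO and at 183.3 and 167.0 CPM with SFN, a log2 difference of -0.26 (edgeR adjusted p = 0.453). Prdx5, found in mitochondria, peroxisomes and cytosol, was at 119.9 and 131.2 CPM with DMSO and at 102.0 and 72.4 CPM with SFN, a log2 difference of -0.53 (edgeR adjusted p = 0.366). Neither pair of groups overlapped, but the 2 SFN libraries of Prdx5 lay farther apart than the nearer of them lay from DMSO. In the fit without both Nrf2-/- libraries of 1 h, 4 members were called, Prdx2 with an adjusted p of 0.0159 and Prdx5 with 0.00129, where 14.2% of all genes were called. Prdx5 shares 409 exon bases, 19.1% of its exon length, with Trmt112 on the opposite strand, and Prdx2 shares 173 with Junb and 177 with Rnaseh2a. Whether strand was used in counting is not given in the sources used here, so the values of these genes are uncertain to that extent.

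Srxn1 and Txnrd1 were lower under hyperosmotic stress in cells without SFN. The comparisons at 1 h and at 6 h share the isosmotic libraries. At 1 h with DMSO, 2 of the 10 members were lower than in isosmotic DMSO cells and none was higher, against 11.2% of all genes called, 7.1% higher and 4.11% lower. Srxn1 went from 81.6 and 82.6 to 55.1 and 57.5 CPM, which is 0.686-fold (log2 -0.54, SE 0.09, edgeR adjusted p = 0.00100). Txnrd1 went from 791.7 and 777.8 to 575.6 and 579.3 CPM, or 0.736-fold (log2 -0.44, SE 0.12, edgeR adjusted p = 0.0223). The call for Txnrd1 was lost when any 1 of the 4 libraries compared was left out, with the highest adjusted p at 0.130. All 10 members had a negative log2 difference here, with a median of -0.18 against 0.00 over all genes tested, but the intervals of Txnrd2, Txn1, Txn2 and the 5 peroxiredoxins held 0. Without both Nrf2-/- libraries of 1 h, 4 members and 22% of all genes were called, Prdx1 (log2 -0.22, adjusted p = 0.0412) and Prdx6 (log2 -0.19, adjusted p = 0.0400) with the former 2.

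In cells given SFN, no member passed the test after 1 h of stress. The count was 0 of 10 in edgeR and in DESeq2, against 9.52% and 12.5% of all genes called. At an unadjusted p under 0.05 in edgeR there were 0 members, against 4234 of the 19509 genes tested. Srxn1 had a log2 difference of -0.06 (95% interval -0.25 to 0.12) and Txnrd1 of 0.08 (95% interval -0.16 to 0.33). Over the 12 WT libraries alone, 1 member and 18.1% of all genes were called. The member was Prdx2, which was at 183.3 and 167.0 CPM in isosmotic SFN cells and at 200.8 and 196.1 CPM at 1 h (log2 0.21, adjusted p = 0.0403).

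At 6 h of stress with DMSO, 2 of the 10 members were called lower and none higher, while 45.9% of all genes tested were called, 22% lower and 23.9% higher, so the members called lower are near their background and the total is below its own. Txnrd1 was at 540.4 and 558.9 CPM, a 0.700-fold level compared with isosmotic DMSO cells (log2 -0.51, SE 0.12, edgeR adjusted p = 0.00203). Srxn1 was at 69.5 and 64.0 CPM, a 0.812-fold level (log2 -0.30, SE 0.09, edgeR adjusted p = 0.0111). The call for Srxn1 was lost with RLE size factors, with other filters on low counts, and without the second library of either group. The smallest log2 difference was -0.18, with at least 10 counts in every library. Prdx6, at 561.0 and 636.3 CPM before and 660.1 and 684.4 CPM at 6 h, did not pass (log2 0.17, adjusted p = 0.150), but was called higher with DESeq2 (adjusted p = 0.00177), RLE size factors (0.0310), at least 10 counts in every library (0.00965) and over the 12 WT libraries (0.0120).

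At 6 h with SFN, 3 members were called, 2 lower and 1 higher, where 47.6% of all genes were called, 22.9% lower and 24.7% higher. Srxn1 fell from 211.9 and 199.8 CPM in isosmotic SFN cells to 100.5 and 94.8 CPM (0.474-fold, log2 -1.08, 95% interval -1.26 to -0.89, edgeR adjusted p = 2.29e-07). Txnrd1 fell from 1218 and 1233 CPM to 718.9 and 698.1 CPM (0.578-fold, log2 -0.79, SE 0.11, edgeR adjusted p = 5.89e-05). Prdx6 rose from 597.7 and 600.9 CPM to 722.9 and 737.9 CPM, 1.22-fold (log2 0.29, SE 0.09, edgeR adjusted p = 0.0178). The call for Prdx6 was lost when any 1 of the 4 libraries compared was left out.

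The thioredoxin Txn1 was at 435.4 and 367.3 CPM in isosmotic SFN cells and at 546.4 and 590.0 CPM at 6 h with SFN, with no overlap. In this comparison 41.1% of all genes tested lay higher and 35.2% lower at 6 h without overlap. The log2 difference of 0.50 for Txn1 had an edgeR adjusted p of 0.270 over all libraries. It was 5.84e-05 without the Nrf2-/- pair of 1 h, in which Txn1 differed most between replicates. In that fit 7 members were called: Srxn1, Txnrd1 and Prdx3 lower, and Txn1, Prdx1, Prdx2 and Prdx6 higher. The log2 difference was 0.27 for Prdx1, 0.25 for Prdx2 and -0.21 for Prdx3. With DMSO the same fit called 4 members, which were Srxn1, Txnrd1 and Prdx3 (-0.21) lower and Txn1 (0.22) higher. The share of all genes called at 6 h in that fit was 56% with DMSO and 57.8% with SFN. Over all libraries with SFN, Prdx1 was not called in edgeR (log2 0.29, adjusted p = 0.106). It passed with DESeq2 (adjusted p = 0.0246), RLE size factors (0.0360) and at least 10 counts in every library (0.0205). Prdx2 passed with the last of these (0.0371).

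**Figure D3:**
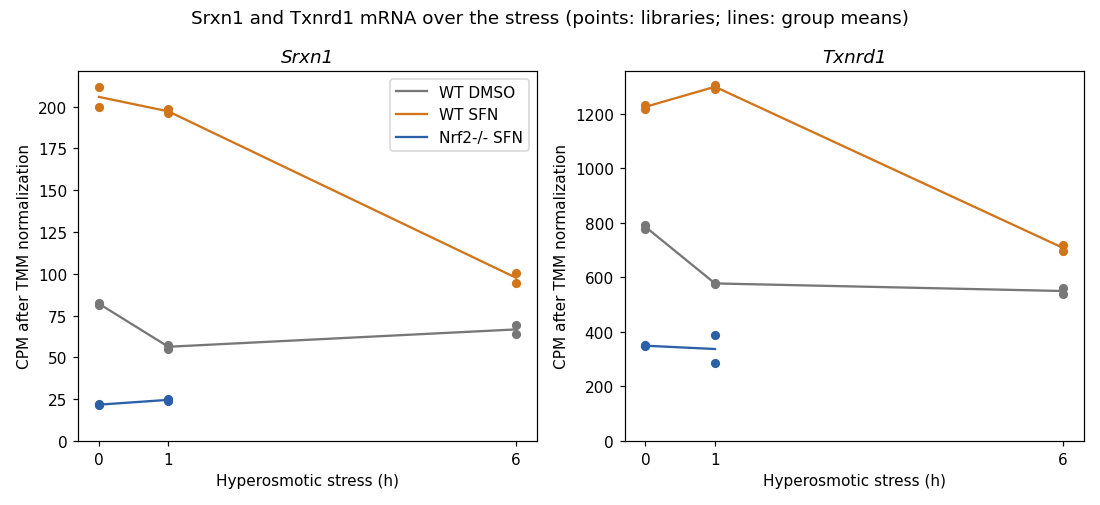
CPM after TMM normalization (y axis from 0) of Srxn1 (left) and Txnrd1 (right) against hours of hyperosmotic stress (x axis, 0 for isosmotic medium), as libraries (points) and group means (lines) of WT cells with DMSO, WT cells with SFN and Nrf2-/- cells with SFN. The SFN line of WT cells changes little from 0 to 1 h and falls towards the DMSO line at 6 h, and the Nrf2-/- line lies below both.

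Whether the effect of SFN differed between isosmotic and stressed cells was tested directly, as a difference of 2 differences that share the isosmotic libraries. At 6 h the effect of SFN on Srxn1 was smaller than in isosmotic medium by 0.78 on the log2 scale (95% interval -1.04 to -0.51, edgeR adjusted p = 0.00527). Srxn1 was the 1 member called, against 0.759% of all genes, 0.164% with a negative and 0.595% with a positive difference. The sign is that of the log2 fold change at 6 h minus the one in isosmotic medium, whichever way each went. The estimate for Txnrd1 was -0.28 (95% interval -0.62 to 0.07, edgeR adjusted p = 0.689). At 1 h no member was called in edgeR, against 0.559% of all genes. At an unadjusted p under 0.05 were 1487 of the 19509 genes tested, with 2 members among them. These were Txnrd1, with an effect of SFN larger by 0.53 than in isosmotic medium (95% interval 0.18 to 0.87, adjusted p = 0.300), and Srxn1, with an effect larger by 0.48 (95% interval 0.22 to 0.74, adjusted p = 0.143). Both were called by DESeq2, at adjusted p of 0.0490 and 0.00931, and without both Nrf2-/- libraries of 1 h, at 0.000339 and 0.00499 in edgeR, where 3% of all genes were called. The larger difference at 1 h went with lower DMSO libraries, 55.1 and 57.5 CPM for Srxn1 against 81.6 and 82.6 CPM in isosmotic medium, while the SFN libraries differed little.

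Srxn1 and Txnrd1 were far lower in Nrf2-/- than in WT cells, both given SFN. In isosmotic medium, 3 of the 10 members were lower and none was higher, and 34.1% of all genes tested were called between these lines, 18.4% lower and 15.7% higher. The count of members is thus near the background. Srxn1 was at 211.9 and 199.8 CPM in WT and at 22.0 and 21.3 CPM in Nrf2-/- cells, or 0.105-fold (log2 -3.25, 95% interval -3.45 to -3.04, edgeR adjusted p = 7.21e-12). Txnrd1 was at 1218 and 1233 CPM in WT and at 346.3 and 351.8 CPM in Nrf2-/- cells, or 0.285-fold (log2 -1.81, SE 0.12, edgeR adjusted p = 2.50e-08). Txn2 was at 161.9 and 149.1 CPM in WT and at 90.1 and 86.7 CPM in Nrf2-/- cells, or 0.569-fold (log2 -0.81, SE 0.14, edgeR adjusted p = 0.000373).

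After 1 h of stress, 4 members were lower in Nrf2-/- cells and none was higher, where 31.5% of all genes were called, 16.2% lower and 15.3% higher. Srxn1 was at 195.9 and 198.5 CPM in WT and at 24.1 and 25 CPM in Nrf2-/- cells (log2 -3.00, SE 0.09, edgeR adjusted p = 1.26e-11). Txnrd1 was at 1291 and 1306 CPM in WT and at 387.6 and 286.4 CPM in Nrf2-/- cells (log2 -1.95, SE 0.12, edgeR adjusted p = 1.38e-08). Txn2 was at 144.6 and 152.5 CPM in WT and at 118.7 and 79.6 CPM in Nrf2-/- cells (log2 -0.58, edgeR adjusted p = 0.00514), and its log2 difference was -0.88 without the first Nrf2-/- library and -0.32 without the second. Prdx6 was at 620.5 and 629.3 CPM in WT and at 524.2 and 477.1 CPM in Nrf2-/- cells (log2 -0.32, edgeR adjusted p = 0.0143). With only the 4 libraries compared, 2 members were still called, Srxn1 and Txnrd1, with 7.82% of all genes, and the adjusted p was 0.207 for Txn2 and 0.321 for Prdx6. Prdx6 also lost its call when either WT library of 1 h was left out.

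**Figure D4:**
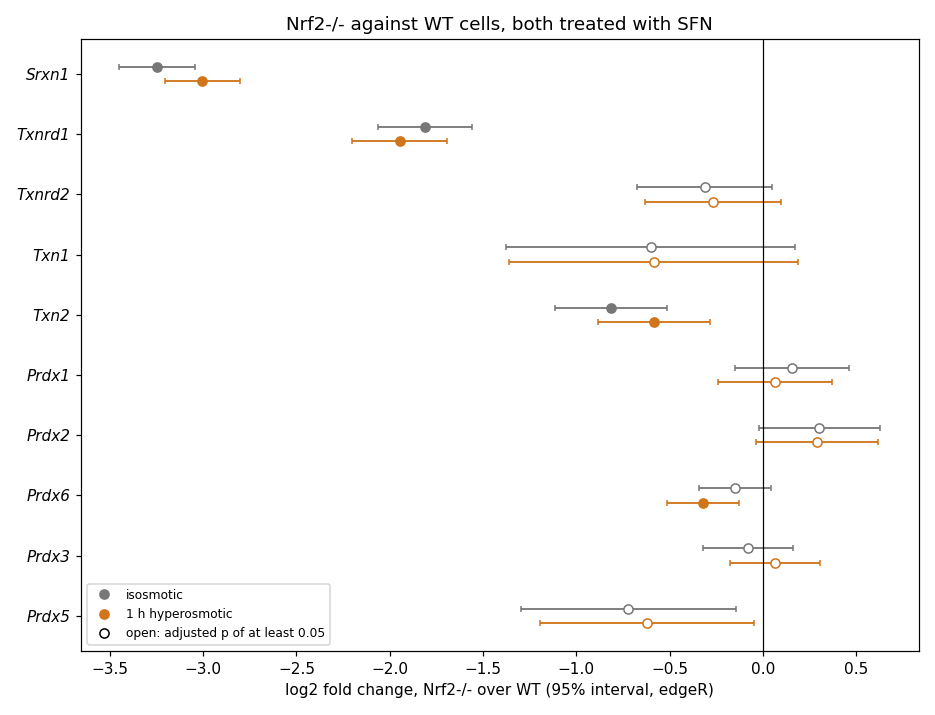
Log2 fold change of Nrf2-/- over WT cells, both given SFN (x axis), for each of the 10 genes (y axis), with 95% intervals from edgeR, in isosmotic medium and after 1 h of hyperosmotic stress. Srxn1 lies near -3, Txnrd1 near -2, Txn2 between -1 and 0, and filled points have an adjusted p under 0.05.

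The other members differed less between the lines or varied too much in the Nrf2-/- pair of 1 h. Prdx5 was at 52.1 and 53.6 CPM in isosmotic Nrf2-/- cells, below the 102.0 and 72.4 CPM of WT, at an adjusted p of 0.0524 (log2 -0.72). Over the same libraries it passed with DESeq2 (0.0230), RLE size factors (0.0438), a minimum of 10 counts in every library (0.0424) and no filter (9.53e-07). At 1 h the 2 Nrf2-/- libraries were at 95.2 and 42.3 CPM against 103.9 and 107.4 CPM in WT. There Prdx5 was called lower without a filter on low counts (log2 -0.63, edgeR adjusted p = 4.49e-05). Txn1 was at 246.3 and 283.0 CPM in isosmotic Nrf2-/- cells, below the 435.4 and 367.3 CPM of WT (log2 -0.60, adjusted p = 0.223), but at 1 h its Nrf2-/- libraries, at 443.4 and 145.9 CPM, overlapped those of WT at 446.7 and 437.4 CPM. Without a filter Txn1 was called lower in isosmotic medium (log2 -0.61, edgeR adjusted p = 2.44e-06) and at 1 h (log2 -0.59, edgeR adjusted p = 6.89e-06). That fit called 20% and 18.5% of all genes. Without the Nrf2-/- pair of 1 h, the isosmotic comparison called 6 members, with Txn1 (log2 -0.58, adjusted p = 5.40e-06) and Prdx5 (log2 -0.70, adjusted p = 9.10e-06) lower and Prdx2 higher (log2 0.32, adjusted p = 0.000572), and 45.8% of all genes. Prdx1 had an interval of -0.15 to 0.46 in isosmotic medium and Prdx3 of -0.32 to 0.16. Srxn1 and Prdx1, the enzyme and one of its substrates, thus differed by genotype very unequally, from 22.0 and 21.3 CPM against 211.9 and 199.8 CPM for Srxn1 to 465.8 and 524.4 CPM against 430.5 and 457.8 CPM for Prdx1.

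Nrf2-/- cells with SFN were also lower than WT cells that never received SFN. In isosmotic medium 5 of the 10 members were lower and none was higher, against 38.8% of all genes called, 20.8% lower and 18% higher. This comparison differs in both genotype and SFN, which cannot be told apart. Srxn1 was at 0.264-fold (log2 -1.92, SE 0.09, edgeR adjusted p = 8.78e-10) and Txnrd1 at 0.445-fold (log2 -1.17, SE 0.12, edgeR adjusted p = 2.05e-06). Prdx5 was at 0.421-fold, Txn2 at 0.585-fold and Txnrd2 at 0.640-fold, with adjusted p of 0.00255, 0.000523 and 0.00747. The call for Txnrd2 was lost without the second DMSO library, which was at 21.4 CPM beside 15.6 CPM in the first. Txn1, at 246.3 and 283.0 CPM against 431.4 and 508.9 CPM, did not pass over all libraries (log2 -0.83, adjusted p = 0.0873). It passed without the Nrf2-/- pair of 1 h (log2 -0.81, adjusted p = 2.82e-08), where 6 members and 49% of all genes were called, and with DESeq2 (adjusted p = 0.0328). The intervals of Prdx1 (-0.15 to 0.46), Prdx2 (-0.28 to 0.38), Prdx3 (-0.33 to 0.15) and Prdx6 (-0.34 to 0.05) held 0. In all 4 Nrf2-/- libraries Srxn1 and Txnrd1, at 21.3 to 25 CPM and 286 to 388 CPM, lay below the lowest of the 12 WT libraries, at 55.1 CPM and 540.4 CPM.

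Within Nrf2-/- cells, no member passed the test after 1 h of stress. The count was 0 of 10 in edgeR and in DESeq2, against 7.17% and 10.3% of all genes called. At an unadjusted p under 0.05 in edgeR there were 0 members, against 3987 of the 19509 genes tested. Srxn1 was at 22.0 and 21.3 CPM before and at 24.1 and 25 CPM after (log2 0.18, 95% interval -0.01 to 0.37). The test of whether stress acted differently in Nrf2-/- and WT cells, both with SFN, also called 0 members in edgeR and DESeq2. The shares of all genes called were 0.123% and 0.656%. At an unadjusted p under 0.05 in edgeR there were 0 members, against 1433 of the 19509 genes tested. Neither statement is firm for the other genes, since leaving out 1 Nrf2-/- library of 1 h or the other turned the direction for Txn1, whose log2 change with stress was -0.86 without the first and 0.74 without the second.

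Other genes of the pathway were read from 3 lists. Of 30 relatives and redox partners of the thioredoxins, all tested, 1 was called higher with SFN in isosmotic medium and 0 at 1 h and at 6 h in edgeR, with 6, 2 and 1 at an unadjusted p under 0.05. Of all genes, 2.84%, 0.0923% and 0.041% were called, so the counts of called relatives are near the background. At that unadjusted p were 3010, 669 and 718 of the 19509 genes tested. The 1 relative called was Sesn2, a sestrin. It was at 11.6 and 12.2 CPM with DMSO and at 24.8 and 25.7 CPM with SFN (log2 1.08, SE 0.13, edgeR adjusted p = 0.000232). Unlike Srxn1 and Txnrd1, Sesn2 was not low in Nrf2-/- cells, where it was at 35.3 and 35.8 CPM (log2 0.49 over WT with SFN, adjusted p = 0.00771). Gsr, glutathione reductase, was at 208.6 and 222.6 CPM with DMSO and at 270.8 and 255.9 CPM with SFN, which did not pass the test (adjusted p = 0.269), and it was lower in Nrf2-/- cells (log2 -0.49, adjusted p = 0.00583).

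Between Nrf2-/- and WT cells with SFN in isosmotic medium, 7 of the 30 relatives were higher and 7 lower, which is near the 15.7% and 18.4% of all genes. Prdx4, the peroxiredoxin of the endoplasmic reticulum, was at 94.2 and 95.9 CPM in Nrf2-/- and at 46.9 and 47.2 CPM in WT cells (log2 1.01, SE 0.11, edgeR adjusted p = 7.21e-06), while no peroxiredoxin among the 10 members was called higher in the same fit. The methionine sulfoxide reductases Msrb1, Msrb2 and Msrb3, which repair oxidized methionine, were lower, with log2 differences of -1.0, -1.34 and -0.40.

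At 6 h of stress, 16 of the 30 relatives were lower and 2 higher with DMSO, and 14 were lower and 1 higher with SFN, where 22% and 22.9% of all genes were lower and 23.9% and 24.7% higher. Txnip, which binds and inhibits thioredoxin, was at 24.6 and 26.2 CPM in isosmotic DMSO cells and at 6.32 and 6.89 CPM at 6 h (log2 -1.94, SE 0.16, edgeR adjusted p = 3.45e-07), with -1.67 in SFN cells. Glrx, a glutaredoxin, had -1.25 with DMSO and -0.82 with SFN, and Msrb2 had -1.11 and -0.84. Sesn2 rose by 0.40 with DMSO and fell by 0.73 with SFN, and the effect of SFN on it was smaller at 6 h than in isosmotic medium by 1.13 on the log2 scale (edgeR adjusted p = 0.00690).

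Thioredoxin reductases carry selenocysteine, an amino acid that needs its own machinery. Of 8 genes of that machinery, all tested, 0 were called with SFN at any time, with 0, 0 and 1 at an unadjusted p under 0.05 in isosmotic medium, at 1 h and at 6 h. Of all genes, 2.84%, 0.0923% and 0.041% were called, so the 0 called are near the background. At that unadjusted p were 3010, 669 and 718 of the 19509 genes tested. At 6 h of stress 5 were lower and none higher with DMSO, and 4 were lower and none higher with SFN, where 22% and 22.9% of all genes were lower. Sephs2, which makes the selenium donor, was at 48.3 and 58.0 CPM in isosmotic DMSO cells and at 18.3 and 19.98 CPM at 6 h (log2 -1.48, edgeR adjusted p = 2.40e-06). Sepsecs, Eefsec and Pstk, which make the selenocysteine tRNA or bring it to the ribosome, had log2 differences of -1.49, -1.22 and -1.19 with DMSO. In isosmotic Nrf2-/- cells 2 of the 8 were lower than in WT with SFN, Secisbp2 (-0.81) and Sepsecs (-0.44), near the 18.4% of all genes.

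The reductases draw on NADPH, and 6 genes of the pentose phosphate pathway and of other NADPH sources were read. Of these, 2 were higher in isosmotic medium, 1 at 1 h and 1 at 6 h, and none was lower, where 1.09%, 0.0923% and 0.041% of all genes were higher. Pgd, an enzyme of the pentose phosphate pathway, was at 245.7 and 262.7 CPM with DMSO and at 382.8 and 410.6 CPM with SFN in isosmotic medium (log2 0.64, SE 0.12, edgeR adjusted p = 0.00686), and its difference was 0.89 at 1 h (adjusted p = 0.00411) and 0.68 at 6 h, which did not pass the test (adjusted p = 0.0831). G6pdx, the enzyme that opens that pathway, was 0.49 higher in isosmotic medium and 0.56 higher at 6 h. No gene of this list was called in the test of whether the effect of SFN differed between isosmotic and stressed cells. Of all genes, 0.559% were called in that test at 1 h and 0.759% at 6 h, so this count is near the background. In Nrf2-/- cells with SFN 4 of the 6 were lower, Pgd (-1.14), Tkt (-0.88), G6pdx (-0.82) and Taldo1 (-0.79), and Idh1 was higher (1.38), where 18.4% of all genes were lower and 15.7% higher. At 6 h of stress Idh1 rose by 1.40 with DMSO and by 1.39 with SFN.

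The regulators Nfe2l2 and Keap1 were not called with SFN and were called at 6 h of stress. Nfe2l2 had a log2 difference of -0.07 with SFN in isosmotic medium (adjusted p = 0.761), and it was higher at 6 h of stress by 0.90 with DMSO and by 1.02 with SFN. Keap1, at 45.5 and 51 CPM with DMSO and 64.3 and 60.5 CPM with SFN in isosmotic medium, did not pass the test (log2 0.37, adjusted p = 0.0635), and at 6 h it was at 23.6 and 23.1 CPM with DMSO (log2 -1.05) and at 25 and 25.9 CPM with SFN (log2 -1.30). These are mRNA levels, and Nrf2 protein was not measured in these files.

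Over the 8 group means, Srxn1 and Txnrd1 were each the gene most like the other among 12290 genes compared, with a Pearson correlation of 0.985 of log2 CPM. This and the following correlations are descriptions over 8 points that share their libraries. For Srxn1 the next were Slc48a1, a haem transporter (0.984), Zdhhc18, a palmitoyltransferase (0.980), Adh7, an alcohol dehydrogenase (0.97), and Eloa, an elongin subunit (0.965). For Txnrd1 they were Vrk3 (0.973), Slc48a1 (0.973), Adh7 (0.961) and Cers2, a ceramide synthase (0.947). The mean level of Slc48a1 was 122.6 CPM in isosmotic DMSO cells, 255 CPM with SFN, 149 CPM at 6 h with SFN and 34.7 CPM in isosmotic Nrf2-/- cells. Some of these genes varied over a narrow range, such as Eloa, whose group means ran from 57.3 to 71.9 CPM. Among the members, the correlation with Srxn1 was 0.85 for Txn2, 0.66 for Txn1, -0.0996 for Prdx1 and -0.74 for Prdx2.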

How the data were processed

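RNA-seq counts of genes were deposited by the authors for 16 libraries of mIMCD3 cells, as whole raw counts per gene. The submitters' processing notes name Bowtie2, SAMtools, featureCounts and mm10, and the study's methods name Hisat2 as the aligner. Versions, annotation and strand setting are not given in the sources used here. Of counts from 1 to 10, between 58.0% and 68.5% per library were even, and whether mates of a pair were counted separately is not given either. Blank lines in 2 files name no gene and were left out.

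Genes were filtered by filterByExpr, scaled by TMM and tested with the edgeR (4.0.16, R 4.3.3) quasi-likelihood F-test, with 1 coefficient per group over all 16 libraries, no block, and Benjamini-Hochberg adjustment over the 19509 genes tested. A gene was called at an adjusted p under 0.05. Intervals are 95% from the same fit. CPM values use TMM library sizes, and correlations use log2 CPM with a prior count of 2 among genes with a mean of at least 50 counts. The test was also run on simulated counts, and the outcome is not given here. Alternatives were DESeq2 (1.42.0), RLE size factors, other filters on low counts, a replicate block, subsets of libraries and leaving out each library. Gene positions come from GENCODE (GRCm38) and promoter windows from RefSeq. Prdx1, Prdx2 and Txn1 have processed pseudogenes of at least 95% identity, to which reads could be split.

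The members are the 10 genes named by the rule, with values for those each comparison turns on, and from the other lists those that passed the test or had the largest differences, with Gsr as a partner enzyme. The members and lists were chosen with earlier results of these data known. The replicates are labelled biological. In the fit over all libraries, p-values rest on 1 spread per gene, estimated over all 8 groups and with sharing between genes. File names of 1 group are numbered differently from the sample titles, and the titles were used.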

Additional observations from a re-analysis of the deposited data

Results flagged for a closer look

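The effect of SFN on Srxn1 differed between isosmotic medium and 6 h of hyperosmotic stress by a test of the difference itself. The log2 fold change of SFN over DMSO was 1.33 in isosmotic medium and 0.55 at 6 h, a difference of -0.78 (95% interval -1.04 to -0.51, edgeR adjusted p = 0.00527). The 2 fold changes come from different libraries, with 2 in each group. The difference lay between -0.83 and -0.72 over 24 alternatives, and its adjusted p was 0.0528 without the first DMSO library of 6 h.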

How the results depend on the processing

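Of 25 called values of single members, 16 kept direction and call in every alternative run, 9 lost the call in at least 1, and 0 changed direction. Counts of called members that moved by over 1.5 times are given here. Over the 12 WT libraries they were 4 (SFN, isosmotic), 2 (SFN, 6 h), 5 (6 h stress, DMSO), 1 (1 h stress, SFN), 6 (6 h stress, SFN) and 2 (SFN effect at 1 h against isosmotic). Without both Nrf2-/- libraries of 1 h they were 4, 2, 4 and 7 for SFN isosmotic, SFN at 6 h, 6 h stress with DMSO and with SFN, 4 for 1 h stress with DMSO, 6 for Nrf2-/- isosmotic and 2 for the SFN effect at 1 h against isosmotic. These fits also called more of all genes: 14.7% over WT libraries and 14.2% without the Nrf2-/- pair for SFN isosmotic, against 2.84%, 0.256% and 0.21% for SFN at 6 h, against 0.041%, 56% in both for 6 h stress with DMSO, against 45.9%, 57.9% and 57.8% for 6 h stress with SFN, against 47.6%, and 3.15% and 3% for the SFN effect at 1 h against isosmotic, against 0.559%. The share was 18.1% for 1 h stress with SFN over WT libraries, and without the pair 22% for 1 h stress with DMSO and 45.8% for Nrf2-/- isosmotic. With only the groups compared the counts were 5 (SFN, 1 h), 2 (SFN, 6 h), 4 and 6 (6 h stress, DMSO and SFN), 6 and 2 (Nrf2-/-, isosmotic and 1 h) and 2 (SFN effect at 1 h against isosmotic), the last also with DESeq2, and the share of all genes was 4.77% for SFN at 1 h, against 0.0923%, 0.63% for SFN at 6 h, 53.8% and 54% for 6 h stress, 42.5% and 7.82% for Nrf2-/- isosmotic and at 1 h, against 34.1% and 31.5%, and 2.14% for the SFN effect at 1 h (1.42% with DESeq2). For SFN at 6 h the count was 0 with RLE size factors and 0 without a filter. Without a filter it was 1 for 6 h stress with DMSO and 5 for isosmotic Nrf2-/- cells. With at least 10 counts in every library it was 5 for 6 h stress with SFN. The cause of these moves was not tested.

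Leaving out each library gave 1 to 4 (SFN, isosmotic), 0 to 2 (SFN, 6 h), 1 to 4 (1 h stress, DMSO), 1 to 5 and 2 to 7 (6 h stress, DMSO and SFN), 3 to 6 and 3 to 7 (Nrf2-/-, isosmotic and 1 h), 0 to 4 (1 h stress in Nrf2-/-), 0 to 2 and 0 to 1 (SFN effect at 1 h and at 6 h against isosmotic), and 0 to 5 (stress by genotype). The share of all genes ran, in the same order, from 0.861% to 14.2%, 0.00513% to 0.215%, 4.93% to 22%, 35.2% to 56%, 36.9% to 57.7%, 23.6% to 45.8%, 20.7% to 45.8%, 2.7% to 26.2%, 0.236% to 2.93%, 0.354% to 3.92% and 0.0154% to 10.8%. Where a group was left with 1 library, it was assumed to vary like the others.

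Replicate numbers were shared by the groups, but the correlation of same-numbered deviations lay between -0.079 and 0.123 over 28 pairs of groups and passed 0.1 in 1. These values show no clear pairing by number, but cannot tell whether same-numbered samples were handled together. With the replicate number as a block, the count for SFN at 6 h was 0, and no other call of a member changed. RLE size factors moved the median of all genes at 6 h from 0.05 to 0.14 with DMSO and from 0.09 to 0.16 with SFN. Depth limits Txnrd2 most, with 369 to 970 counts per library.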
